A study of Mus musculus with 36 samples.

Results

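The data described here are the counts of 10 genes of cell adhesion and of the cell-surface proteoglycans, chosen by name from the 43472 genes of the count table. The choice was made with earlier results of these data known. They are the leukocyte adhesion proteins Icam1 and Vcam1, the hyaluronan receptor Cd44, the syndecans Sdc1, Sdc2, Sdc3 and Sdc4, and the integrin subunits Itga5, Itgav and Itgb1. RNA was collected from primary enteric glial cells (EGCs), the glia of the gut wall, grown from neurospheres of embryonic intestine of wild-type C57BL/6J mice. The cells were left unstimulated, or received conditioned medium of digested healthy colon (H-CM) or of digested orthotopic tumors of the MC38 colon cancer line (TME-CM), for 6 h, 12 h or 24 h. Each of these 9 groups had 4 libraries, 36 in all, and every group was wild-type. These are embryonic glia in culture, and both media carry whatever the digested tissue released, so that TME-CM against H-CM compares mixtures and not single factors. Nothing in the labels states that the 4 libraries of a group came from separate cultures, so the p-values measure the spread between these libraries.

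Adhesion proteins of the immunoglobulin type, such as ICAM1 and VCAM1, hold leukocytes by their integrins and are known as genes switched on by inflammatory cytokines in endothelium and in astrocytes. Syndecans are transmembrane proteins that carry heparan sulfate chains, through which they bind matrix proteins, growth factors and chemokines, and their outer parts can be shed. Integrins are pairs of an alpha and a beta subunit that join the cell to fibronectin, laminin and other matrix, and the beta 1 subunit pairs with many alpha subunits.

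In TME-CM EGCs, Icam1, Vcam1, Sdc1 and Sdc4 were higher than in unstimulated EGCs, while Cd44, Sdc2, Sdc3, Itga5 and Itgav passed the edgeR test, fitted per time, in no comparison and Itgb1 was lower in 1. Icam1 and Vcam1 had their highest mean level in TME-CM EGCs at 6 h, and Sdc1 and Sdc4 were called from 12 h on. Against H-CM, the medium of healthy tissue, Vcam1 and Sdc1 were higher at 12 h and 24 h and Sdc4 at 24 h. A model of all 36 libraries called none of these differences from H-CM. It also lost the 24 h calls of Icam1, Vcam1 and Itgb1 against unstimulated EGCs. With 1 library left out, the Sdc4 call against H-CM was lost in most fits and the Vcam1 call of 12 h in some. Some such fits also lost the 6 h calls of Icam1 and Vcam1 and the 12 h call of Sdc4 against unstimulated EGCs. By edgeR, no gene of the 10 was called between H-CM and unstimulated EGCs. DESeq2 called 2 at 12 h and 1 at 24 h, and its share over all genes is not given here.

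The libraries were made from the 3′ ends of transcripts, so a count is not scaled by transcript length, and levels are compared here for 1 gene between groups. Totals ran from 13518 to 5244763 counts per library at 6 h, from 2005239 to 5961933 at 12 h and from 1608018 to 7552509 at 24 h. H-CM replicate 4 of 6 h held the 13518 counts, so that 1 count in it stood for 36.8 CPM, and a gene at 0 there was not detectable at that depth. CPM are counts scaled to 1000000 by the TMM-adjusted library size, on 1 scale for all libraries, and a gene was called at an adjusted p under 0.05 in edgeR's quasi-likelihood test (Benjamini-Hochberg over all genes tested). The 6 h libraries also differed in the share of counts of 1 gene, Yam1, which took 37.8% to 48.6% in 7 of them and 10.97% to 20.0% in the other 5 (TME-CM replicates 1, 3 and 4, and replicate 4 of both other groups). This share varied at the later times too, from 12.6% to 39.9% at 12 h and from 12.7% to 35.1% at 24 h. All 10 genes passed the filter on low counts at each time. Of markers of glia, Sox10 had group means of 63.8 to 65.8 CPM and S100b of 48.4 to 80.2 CPM over the 3 groups of 24 h. Markers of mesenchyme (5 genes) summed to 2156 to 3018 CPM in the TME-CM libraries of 24 h and to 1057 to 1265 CPM in the others of that time. At 12 h, the same sum was 1909.6 to 2617 CPM in the TME-CM libraries and 807 to 1199 CPM elsewhere. Most of it was Dcn, with 24 h means of 2259 CPM in TME-CM and 973 CPM in H-CM. Of this list, only Dpt had a lower mean in TME-CM than in H-CM at 24 h (10.1 against 15.5 CPM). Markers of smooth muscle (7 genes) summed to 1596 to 2337 CPM in TME-CM, 3089 to 3779 CPM in H-CM and 6618 to 7603 CPM in unstimulated EGCs at 24 h. Most of that sum was Acta2, with means of 1523, 2637 and 5724 CPM in the same order. The immune list (8 genes in the table) spanned 53.6 to 345 CPM at 24 h with overlapping groups, the epithelial list stayed at 4.92 CPM or less, and the neuronal list (6 genes) spanned 294 to 499 CPM. At 6 h, the immune list spanned 104 to 678 CPM in unstimulated, 73.6 to 368 CPM in H-CM and 64.2 to 419 CPM in TME-CM EGCs. The part of immune cells in the 6 h values of Icam1 and Vcam1 was not tested. In bulk RNA of such cultures, fewer cells of a type and less RNA per cell cannot be told apart.

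RefSeq promoter sequences (GRCm38.p6, 250 bases before to 50 after the annotated start) were found for 8 of the 10 genes, all but Vcam1 and Sdc2. They are shown for Icam1, Sdc4 and Sdc1, those of the genes higher in TME-CM EGCs that have one, with letters of the NF-kB type in capitals. The windows are chr9:21015690-21015989 on the plus strand for Icam1, chr2:164443139-164443438 on the minus strand for Sdc4 and chr12:8771146-8771445 on the plus strand for Sdc1, each printed 5′ to 3′ along its gene.
Icam1: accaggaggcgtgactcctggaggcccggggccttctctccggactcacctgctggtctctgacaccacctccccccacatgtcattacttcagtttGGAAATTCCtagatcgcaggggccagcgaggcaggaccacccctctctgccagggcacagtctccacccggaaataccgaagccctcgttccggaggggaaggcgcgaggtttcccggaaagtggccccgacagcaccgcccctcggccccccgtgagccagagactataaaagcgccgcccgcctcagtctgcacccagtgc
Sdc4: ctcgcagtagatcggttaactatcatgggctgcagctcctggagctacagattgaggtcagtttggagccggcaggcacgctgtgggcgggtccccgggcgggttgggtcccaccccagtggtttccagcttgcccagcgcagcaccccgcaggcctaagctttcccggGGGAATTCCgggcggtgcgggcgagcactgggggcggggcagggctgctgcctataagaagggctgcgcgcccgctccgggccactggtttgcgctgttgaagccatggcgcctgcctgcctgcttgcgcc
Sdc1: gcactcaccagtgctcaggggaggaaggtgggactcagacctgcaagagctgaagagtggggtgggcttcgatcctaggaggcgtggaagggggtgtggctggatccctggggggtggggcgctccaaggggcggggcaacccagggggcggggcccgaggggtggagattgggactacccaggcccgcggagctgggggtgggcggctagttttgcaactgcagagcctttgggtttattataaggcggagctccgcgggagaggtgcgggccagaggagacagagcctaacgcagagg

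In the Icam1 window, GGAAATTCC, a match to GGAANTTCC, began 153 bases before the start, and 0.928% of 32851 promoters of this length hold that motif on either strand. Icam1 also held TTCNNNGAA, of the STAT type (8.3% of promoters), and TATAAA (13.6%), and neither overlapped the capitals. Sdc4 held GGGAATTCC, beginning 81 bases before the start (0.225% of promoters), a motif that was added to the search after the sequences had been read. GGGNNTTTC (4.36% of promoters) and TGANTCA, of the AP-1 type (7.81%), matched none of the 8 windows, and beyond Icam1 and Sdc4 no window held any of the 6 motifs. The RefSeq start of Sdc4 lies 699 bases downstream of the GENCODE start of the gene position given here, so its window is inside that gene, while the 2 starts differ by 73 bases for Sdc1, and for Icam1 the RefSeq start lies upstream (-45 bases). A match is a run of letters and not a measured binding site.

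Icam1 (gene ID 15894; chr9:21015985-21028817, plus strand, mm10) encodes the ligand by which endothelium and glia hold leukocytes carrying beta 2 integrins. At 6 h, its level was 3.24, 4.70, 5.26 and 0 CPM in the 4 unstimulated libraries, 19.0, 16.4, 6.67 and 0 CPM in H-CM and 36.2, 41.1, 105 and 85.7 CPM in TME-CM EGCs. All TME-CM libraries lay above all others, and the 0 in H-CM was that of the library with 13518 counts. TME-CM exceeded unstimulated EGCs 24.3-fold (log2 fold change 4.61 ± 1.01 SE, adjusted p = 0.0331 by edgeR), with no more than 6 counts behind any unstimulated value. Among the 6 h libraries with a low share of Yam1, Icam1 was at 36.2, 105 and 85.7 CPM in TME-CM and at 0 in the 1 unstimulated library, and among those with a high share at 41.1 CPM in the 1 TME-CM library and 3.24 to 5.26 CPM in unstimulated EGCs, too few for a test within either. Of the 10 genes, Icam1 and Vcam1 were the 2 called higher in this comparison, beside 0.432% of all genes tested.

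At 12 h, Icam1 reached 34.7, 51.2, 40.4 and 31.9 CPM in TME-CM, 28.5, 16.6, 15.3 and 3.95 CPM in H-CM and 3.05, 0, 5.56 and 2.74 CPM in unstimulated EGCs. TME-CM again did not overlap with either group, while the lowest H-CM value fell among the unstimulated ones. The fold against unstimulated EGCs was 13.2 (log2 3.72 ± 0.58 SE, adjusted p = 0.000408 by edgeR). At 24 h, the levels of Icam1 were 6.06, 11.5, 8.07 and 6.04 CPM in TME-CM, 6.58, 9.89, 4.92 and 2.48 CPM in H-CM and 2.51, 2.24, 3.38 and 0.741 CPM in unstimulated EGCs. The 2 media now overlapped, and TME-CM remained 3.51-fold above unstimulated EGCs (adjusted p = 0.00797).

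Within TME-CM EGCs, Icam1 fell 5.07-fold from 12 h to 24 h (log2 change -2.34 ± 0.49 SE, adjusted p = 0.0135 by edgeR on 24 libraries). It was the only 1 of the 10 genes called between these times, against 0.122% of all genes called lower in TME-CM. Between TME-CM and H-CM, the log2 fold change of Icam1 was 2.32 at 6 h (95% interval 0.48 to 4.15, adjusted p = 0.735), 1.31 at 12 h (0.27 to 2.35, adjusted p = 0.284) and 0.32 at 24 h (-0.53 to 1.17, adjusted p = 0.796), none of them called. The one of 6 h was called in 1 model of all 36 libraries (0.0398 by edgeR), and that of 12 h when no filter on low counts was set (0.00694). Between H-CM and unstimulated EGCs it was 2.29, 2.41 and 1.49 at the 3 times, with adjusted p of 1.0, 0.102 and 0.0971. DESeq2 called this difference at 12 h (adjusted p = 0.00143) and 24 h (0.0343).

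The Icam1 call at 6 h was lost without TME-CM replicate 3 (adjusted p = 0.0689) or 4 (0.116), and without unstimulated replicate 1 (0.104), 2 (0.0724) or 4 (0.0513). It was also lost with DESeq2's size factors (0.0743) and in a fit of only the 8 libraries compared (0.107). The fall from 12 h to 24 h lost its call without TME-CM replicate 1 (0.0854), 3 (0.0596) or 4 (0.0877) of 24 h, and 1 model of all 36 libraries ended it (0.805) and the call at 24 h (0.250). Of the exon bases of Icam1, 511 are shared with Gm47079, a gene on the other strand, and all of these lie in the last 1000 bases of Icam1, where 3′ reads fall. Whether the counting used strand is not given in the sources used here, and without strand the reads of both genes cannot be told apart.

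Vcam1 (22329; chr3:116109949-116129688, minus strand) encodes the ligand of alpha 4 beta 1 integrin on monocytes and lymphocytes. At 6 h, its level was 37.6, 42.0, 398 and 164 CPM in TME-CM, 35.0, 13.2, 34.4 and 0 CPM in H-CM and 5.40, 7.83, 5.26 and 0.213 CPM in unstimulated EGCs. TME-CM libraries lay above all others, narrowly so for replicate 1, and replicates 3 and 4 stood far above replicates 1 and 2. The fold of TME-CM against unstimulated EGCs was 38.3 (log2 5.26 ± 0.95 SE, adjusted p = 0.00769 by edgeR), with at most 10 counts in an unstimulated library. Among libraries with a low share of Yam1, these values were 37.6, 398 and 164 CPM in TME-CM and 0.213 CPM in the unstimulated library, and among those with a high share 42.0 CPM and 5.26 to 7.83 CPM. TME-CM replicate 3, the highest for Vcam1, was the lowest for Sdc1 and Sdc3. Without it the log2 fold change was 4.26 (adjusted p = 0.0274), and without unstimulated replicate 1 the adjusted p was 0.0655.

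At 24 h, the Vcam1 levels were 29.6, 26.9, 34.0 and 50.0 CPM in TME-CM, 16.0, 18.3, 10.1 and 12.4 CPM in H-CM and 14.8, 13.9, 9.73 and 11.4 CPM in unstimulated EGCs. Every TME-CM library exceeded every other library, and H-CM overlapped with unstimulated EGCs. At 12 h they were 24.7, 53.2, 43.4 and 63.2 CPM in TME-CM, 24.5, 17.6, 15.5 and 16.1 CPM in H-CM and 5.60, 12.3, 6.35 and 4.79 CPM in unstimulated EGCs. There the 3 groups followed in this order without overlap, although the lowest TME-CM and the highest H-CM value all but met.

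Against H-CM, Vcam1 in TME-CM EGCs was 2.51-fold higher at 12 h (log2 1.33 ± 0.32 SE, adjusted p = 0.0325) and 2.48-fold higher at 24 h (1.31 ± 0.23 SE, adjusted p = 0.000971). Against unstimulated EGCs, it was 6.45-fold higher at 12 h (adjusted p = 4.44e-05) and 2.85-fold higher at 24 h (8.38e-05). H-CM against unstimulated EGCs gave log2 2.64, 1.36 and 0.20 in order of time (adjusted p = 1.0, 0.129 and 0.881 by edgeR), of which DESeq2 called the one of 12 h (0.0282). At 6 h, the difference between TME-CM and H-CM was 2.62 (0.91 to 4.33, adjusted p = 0.557), which was called without the filter on low counts (0.00842) and in 1 model of all 36 libraries (0.00725).

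The change of the TME-CM minus H-CM difference of Vcam1 from 12 h to 24 h was 0.00 on the log2 scale. Vcam1 itself changed by -0.37 in TME-CM (95% interval -0.92 to 0.19) and by -0.37 in H-CM EGCs (-0.95 to 0.22). No interval is given for the change of the difference, since intervals were derived from the test statistic, which fails for estimates near 0. The call of 12 h against H-CM was lost without H-CM replicate 2 (adjusted p = 0.108) or 4 (0.117) and without TME-CM replicate 2 (0.0860), 3 (0.0605) or 4 (0.175). In the model of all 36 libraries, the adjusted p against H-CM was 0.549 at 12 h and 0.704 at 24 h, and against unstimulated EGCs it was 0.191 at 24 h. The sum of the mesenchyme markers was higher in the same TME-CM libraries of 12 h and 24 h (1 of the 5 called against H-CM at 12 h and 3 at 24 h), and their part in the result was not tested. Of the endothelial markers (6 genes), the sum was 27.2 to 42.4 CPM in TME-CM and 43.3 to 61.9 CPM in H-CM at 12 h, and 11.7 to 27.3 CPM and 31.9 to 67.8 CPM at 24 h, most of it from Kdr. At 12 h, Pecam1 (4.87 against 3.13 CPM), Emcn (4.01 against 3.13 CPM) and Cdh5 (1.96 against 0.276 CPM) had higher means in TME-CM than in H-CM, the first 2 not called and Cdh5 under the filter on low counts. Cldn5 was at 0 counts in every library of both times. The part of endothelial cells in the Vcam1 difference was not tested.

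**Figure D1:**
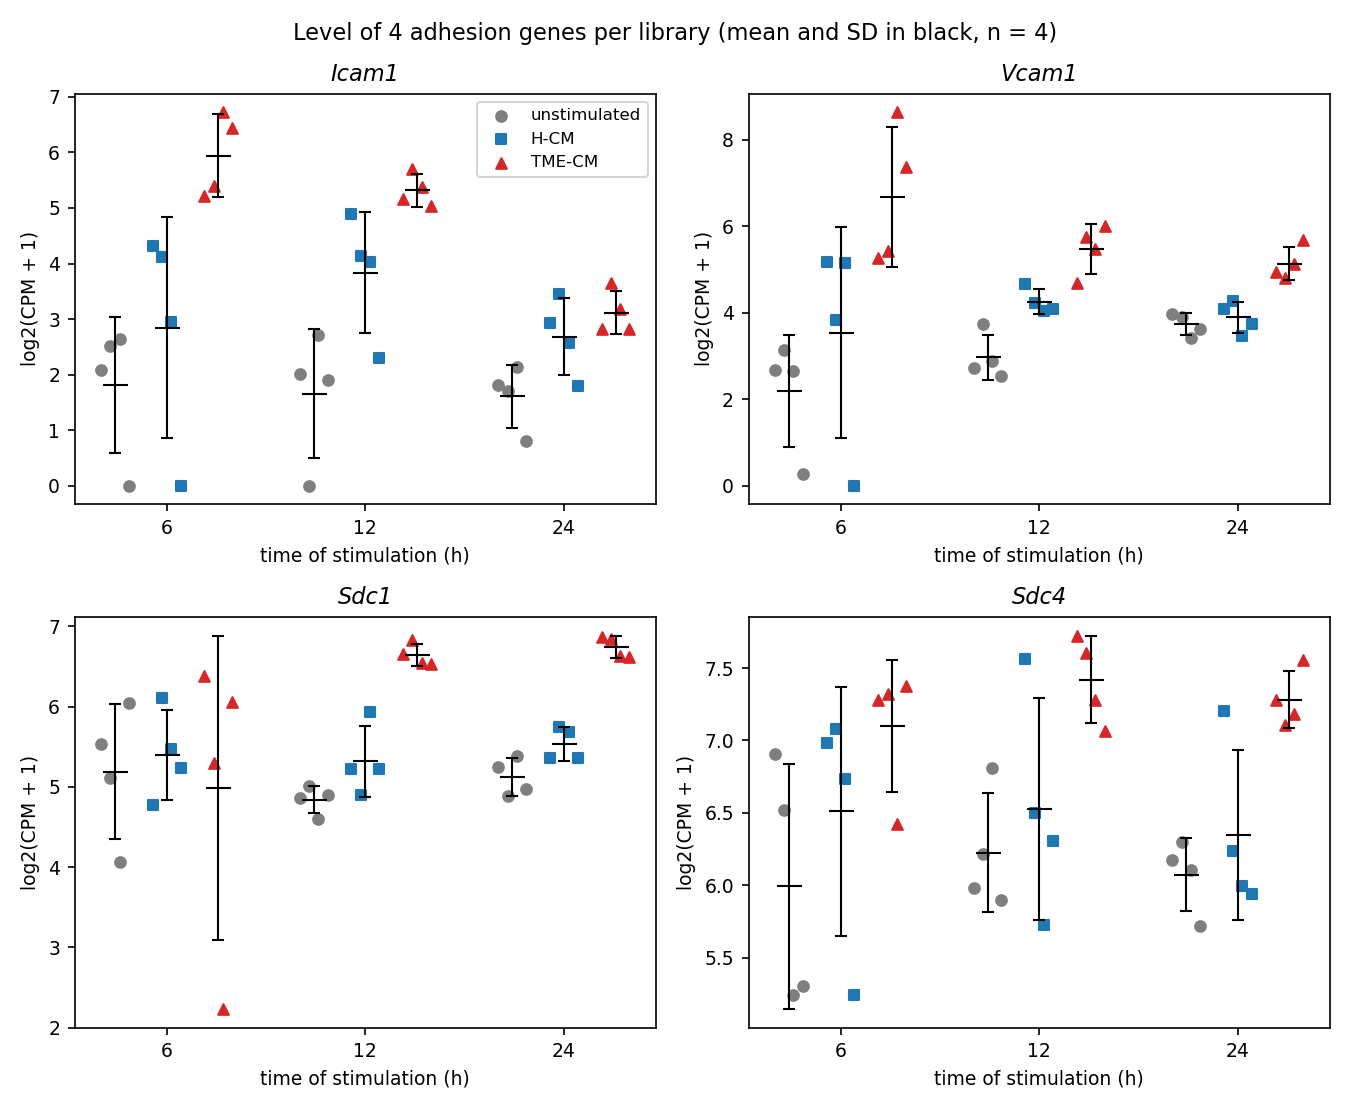
Level of Icam1, Vcam1, Sdc1 and Sdc4 in each library, as log2(CPM + 1), against the time of stimulation in hours. Gray circles are unstimulated, blue squares H-CM and red triangles TME-CM EGCs, with the mean and SD of the 4 libraries in black. Icam1 in TME-CM lies above the other groups at 6 h and 12 h, close to the highest H-CM library at 12 h (31.9 and 28.5 CPM), and overlaps with H-CM at 24 h, where its mean level was 7.92 CPM against 5.97 CPM. Sdc1 separates from 12 h on, and 1 H-CM library of Sdc4 lies among the TME-CM libraries at 12 h and 24 h.

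Sdc1 (20969; chr12:8771323-8793715, plus strand), is a syndecan best known from epithelium and plasma cells. At 12 h, its level was 99.6, 112, 91.9 and 91.8 CPM in TME-CM, 36.3, 28.7, 60.2 and 36.3 CPM in H-CM and 28.0, 31.1, 23.3 and 28.9 CPM in unstimulated EGCs. At 24 h, it was 116, 114, 97.8 and 97.1 CPM, 39.9, 52.7, 50.4 and 40.1 CPM, and 37.1, 28.5, 40.8 and 30.4 CPM in the same order. All 8 TME-CM libraries of these times exceeded all 16 others, and H-CM and unstimulated EGCs overlapped.

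Against H-CM, Sdc1 was 2.45-fold higher in TME-CM EGCs at 12 h (log2 1.29 ± 0.23 SE, adjusted p = 0.00251) and 2.30-fold higher at 24 h (1.20 ± 0.15 SE, adjusted p = 1.98e-05 by edgeR). Sdc1 and Vcam1 were the 2 of the 10 genes called at 12 h, where 1.22% of all genes tested were called higher. At 24 h, 3 were called, these and Sdc4, beside 2.75% of all genes. Against unstimulated EGCs, Sdc1 was 3.54-fold higher at 12 h (adjusted p = 3.39e-05) and 3.10-fold at 24 h (9.31e-08). Here 4 of the 10 genes were called higher at both times, Icam1, Vcam1, Sdc1 and Sdc4, beside 2.67% of all genes at 12 h and 4.82% at 24 h.

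At 6 h, Sdc1 measured 82.2, 38.2, 3.70 and 65.5 CPM in TME-CM, 26.3, 68.1, 43.3 and 36.8 CPM in H-CM and 45.4, 33.7, 15.8 and 64.9 CPM in unstimulated EGCs. The groups overlapped fully, and the lowest value, 9 counts, was that of TME-CM replicate 3. The log2 difference from H-CM was 0.05 (95% interval -1.36 to 1.46), and 0.43 without replicate 3, so the data of 6 h do not bound a change of the size seen later. From 12 h to 24 h, the difference changed by -0.08 (-0.61 to 0.46). Each of the calls of 12 h and 24 h was kept when any 1 library was left out, with adjusted p up to 0.0161. In the model of all 36 libraries the calls against H-CM were lost (0.191 at 12 h and 0.323 at 24 h) and those against unstimulated EGCs kept. The sum of the mesenchyme markers was higher in the same TME-CM libraries, the epithelial list was near 0, and the part of other cells in the Sdc1 difference was not tested.

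Sdc4 (20971; chr2:164424247-164443887, minus strand), the syndecan of focal adhesions, was measured at 155, 137, 145 and 187 CPM in TME-CM, 147, 74.4, 62.8 and 60.4 CPM in H-CM and 71.2, 77.7, 67.7 and 51.5 CPM in unstimulated EGCs at 24 h. H-CM replicate 1 lay within the TME-CM range, and the other 3 H-CM libraries among the unstimulated ones. At 12 h the levels were 210.5, 194, 155 and 133 CPM, 188, 89.5, 52.0 and 78.3 CPM, and 62.1, 73.3, 111 and 58.6 CPM in the same order. Replicate 1 was again the highest H-CM library, and TME-CM and unstimulated EGCs did not overlap.

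TME-CM against unstimulated EGCs gave a 2.25-fold difference for Sdc4 at 12 h (log2 1.17 ± 0.31 SE, adjusted p = 0.0360) and a 2.32-fold difference at 24 h (1.22 ± 0.23 SE, adjusted p = 0.00202 by edgeR). Against H-CM, it was 1.80-fold at 24 h (0.85 ± 0.23 SE, adjusted p = 0.0423), and at 12 h it was 0.77 on the log2 scale (0.12 to 1.42, adjusted p = 0.335, and 0.0268 with no filter on low counts). Without H-CM replicate 1, both differences from H-CM were called, with log2 1.24 at 12 h (adjusted p = 0.00819) and 1.23 at 24 h (2.92e-05).

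The call of Sdc4 against H-CM at 24 h was kept when unstimulated replicate 4 (adjusted p = 0.0374) or H-CM replicate 1 was left out. It was lost without H-CM replicate 2 (0.139), 3 (0.138) or 4 (0.116), without TME-CM replicate 1 (0.0882), 2 (0.0635), 3 (0.0713) or 4 (0.128) and without unstimulated replicate 1 (0.0804), 2 (0.0541) or 3 (0.0586). The call against unstimulated EGCs at 12 h was lost without TME-CM replicate 1 (0.117), 2 (0.108) or 3 (0.0572), unstimulated replicate 1 (0.131), 2 (0.109) or 4 (0.137), or H-CM replicate 2 (0.0504). A fit of only the 8 libraries compared (0.0897) and the model of all 36 libraries (0.633) also ended the call against H-CM.

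At 6 h, Sdc4 measured 155, 159, 84.6 and 166 CPM in TME-CM, 125, 135, 106 and 36.8 CPM in H-CM and 119, 90.9, 36.8 and 38.4 CPM in unstimulated EGCs. The lowest TME-CM value, again of replicate 3, lay within both other groups. The log2 difference between TME-CM and H-CM was 0.32 (-0.61 to 1.24, adjusted p = 0.939) and that between TME-CM and unstimulated EGCs 0.93 (0.01 to 1.84, adjusted p = 0.796).

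Sdc2 (15529; chr15:32920723-33034935, plus strand), the syndecan of mesenchymal and neural cells, lay close together in all groups from 12 h on. At 24 h, it ranged from 85.2 to 90.2 CPM in TME-CM, 85.2 to 100.3 CPM in H-CM and 92.3 to 102 CPM in unstimulated EGCs. The TME-CM libraries overlapped with H-CM and lay below the unstimulated ones, and neither difference was called (log2 -0.10, 95% interval -0.34 to 0.14, and -0.17, -0.40 to 0.07). At 12 h, the differences of Sdc2 in TME-CM EGCs were 0.07 (-0.30 to 0.44) from H-CM and -0.20 (-0.57 to 0.17) from unstimulated EGCs.

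Sdc3 (20970; chr4:130792537-130826319, plus strand), the syndecan of the nervous system, measured 129.6, 141, 144 and 124 CPM in TME-CM, 120.0, 102, 94.0 and 120.0 CPM in H-CM and 71.2, 88.5, 85.5 and 129.8 CPM in unstimulated EGCs at 12 h. TME-CM stood above H-CM and overlapped with 1 unstimulated library. Its log2 difference from unstimulated EGCs was 0.51 (0.11 to 0.90, adjusted p = 0.187) and that from H-CM 0.31 (-0.08 to 0.70, adjusted p = 0.627), neither called. At 24 h, the group means of Sdc3 were 146, 152 and 135 CPM in TME-CM, H-CM and unstimulated EGCs, with SDs of 35.8, 26.9 and 20.5 CPM. At 6 h, TME-CM libraries spanned 4.93 to 185 CPM, the lowest being replicate 3 with 12 counts. Sdc3 shares 415 exon bases with Gm26716 on the other strand, 222 of them in its last 1000 bases.

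**Figure D2:**
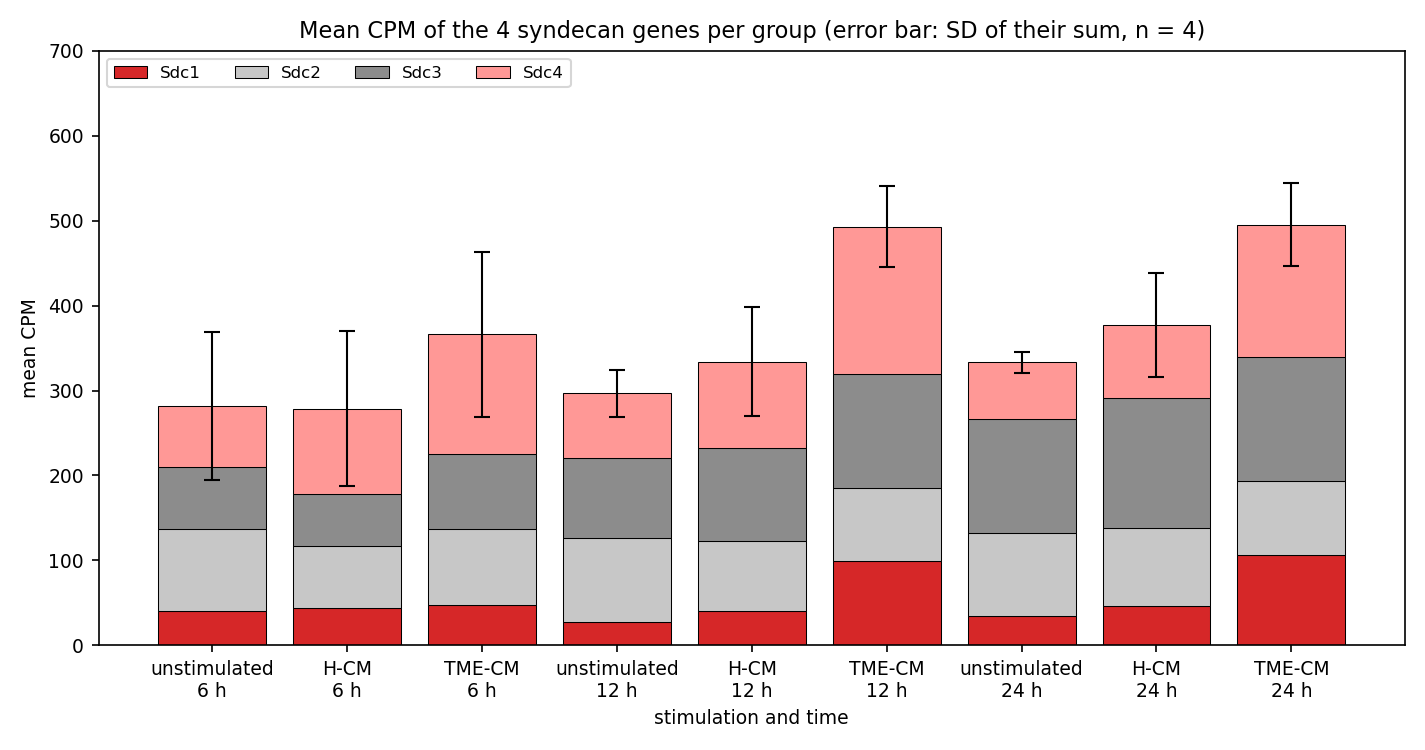
Mean CPM of Sdc1, Sdc2, Sdc3 and Sdc4, stacked, in each of the 9 groups of 4 libraries, with the SD of their sum as an error bar. The bars of TME-CM EGCs at 12 h and 24 h reach 493 and 495 CPM, and the red part, Sdc1, and the pink part, Sdc4, are taller there than in the other groups.

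Summed over the 4 syndecans, the level was 493 ± 47.7 CPM (SD, n = 4) at 12 h and 495 ± 48.8 CPM at 24 h in TME-CM EGCs. H-CM EGCs had 334 ± 63.7 and 377 ± 61.0 CPM, and unstimulated EGCs 297 ± 27.5 and 333 ± 12.4 CPM at these times. Sdc1 made up 20.1% ± 1.42 of the syndecan counts in TME-CM at 12 h, 12.5% ± 5.17 in H-CM and 9.49% ± 1.80 in unstimulated EGCs. At 24 h these shares were 21.7% ± 3.75, 12.4% ± 2.83 and 10.3% ± 1.96. The lowest TME-CM share of Sdc1 at 12 h, 18.5%, lay below the highest in H-CM, 20.0%, and at 24 h the lowest in TME-CM, 17.4%, exceeded the highest of the others, 14.6%. The share of Sdc2 was 17.7% ± 1.60 in TME-CM at 24 h, 25.1% ± 4.21 in H-CM and 29.3% ± 1.62 in unstimulated EGCs, although its level barely differed between them. The H-CM and TME-CM sums at 24 h overlapped (331.8 to 467 and 442 to 560 CPM), and no test was made of the sum or the shares.

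Cd44 (12505; chr2:102811141-102901665, minus strand), the receptor of hyaluronan and of osteopontin, was 727, 544, 1120.4 and 850.2 CPM in TME-CM at 6 h. H-CM libraries had 481, 458, 446 and 184 CPM and unstimulated libraries 335, 615, 142 and 517 CPM. All TME-CM values exceeded those of H-CM, and 1 unstimulated library lay among them. The log2 differences of 0.96 (0.15 to 1.76, adjusted p = 0.749) and 0.98 (0.18 to 1.77, adjusted p = 0.601) were not called, while the model of all 36 libraries called both (adjusted p = 0.0235 and 0.0124). By 24 h, Cd44 was 310.3 to 385 CPM in TME-CM, 245 to 344 CPM in H-CM and 305 to 373 CPM in unstimulated EGCs. These ranges overlapped, with a log2 difference of 0.21 from H-CM (-0.05 to 0.46) and -0.02 from unstimulated EGCs (-0.27 to 0.24).

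Among the integrin subunits, Itgb1 (16412; chr8:128685654-128733200, plus strand), the common beta 1 subunit, measured 979, 865, 966 and 970.0 CPM in TME-CM, 1119, 1136, 1102 and 1082 CPM in H-CM and 1075, 1338, 1379.7 and 1402 CPM in unstimulated EGCs at 24 h. Each TME-CM library lay below each H-CM and each unstimulated one. Compared with unstimulated EGCs, Itgb1 was lower (log2 fold change -0.46 ± 0.11 SE, adjusted p = 0.00697 by edgeR), the 1 gene of the 10 called lower there, beside 4.70% of all genes. The difference from H-CM, -0.24 (-0.46 to -0.01, adjusted p = 0.294), was not called, and neither was that between H-CM and unstimulated EGCs, -0.23 (-0.46 to 0.00, adjusted p = 0.478). The call was kept when any 1 library was left out (adjusted p up to 0.0347) and lost in the model of all 36 libraries (0.861). The summed smooth muscle markers were lower in the same order of groups at this time. Of the 7 markers, 6 were called lower in TME-CM against unstimulated EGCs and 5 against H-CM. Their part in the Itgb1 difference was not tested.

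At 6 h, Itgb1 stood the other way against H-CM, at 1068, 1038, 1479 and 2099 CPM in TME-CM and 711, 906, 789 and 442 CPM in H-CM. These groups did not overlap, although the 442 CPM came from 12 counts in the library of 13518 counts. The log2 difference of 0.94 (0.21 to 1.67) had an adjusted p of 0.735 by edgeR, and one of 0.0152 in the model of all 36 libraries. Unstimulated EGCs, at 1265, 891, 504 and 1312 CPM, overlapped with TME-CM (log2 0.48, -0.24 to 1.20, adjusted p = 0.882 by edgeR). At 12 h, the differences of TME-CM were -0.38 from H-CM (-0.77 to 0.00) and -0.29 from unstimulated EGCs (-0.67 to 0.10), neither called. Between TME-CM and H-CM at 6 h, no gene of the 10 was called by edgeR or by DESeq2. By edgeR, 0.0972% of all genes were called. An unadjusted p under 0.05 was found for 4 of the 10 and for 562 of all 9256 genes tested.

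Itga5 (16402; chr15:103344286-103366763, minus strand), the alpha subunit of the fibronectin receptor, was low. At 24 h, it measured 17.0, 25.7, 18.3 and 21.6 CPM in TME-CM, 18.4, 13.3, 8.96 and 16.8 CPM in H-CM and 21.3, 28.8, 21.3 and 22.5 CPM in unstimulated EGCs. H-CM lay below unstimulated EGCs without overlap, and TME-CM overlapped with both. The log2 difference between H-CM and unstimulated EGCs was -0.75 (-1.22 to -0.28, adjusted p = 0.107, and 0.0497 with no filter on low counts) and that between TME-CM and H-CM 0.54 (0.06 to 1.02, adjusted p = 0.230).

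Itgav (16410; chr2:83724397-83806916, plus strand), the alpha V subunit that binds vitronectin and osteopontin, measured 134, 86.3, 132 and 164 CPM in TME-CM, 143, 129.8, 114 and 104 CPM in H-CM and 98.8, 147, 132 and 153 CPM in unstimulated EGCs at 24 h. The 3 groups overlapped, and the log2 differences of TME-CM were 0.07 from H-CM (-0.28 to 0.42) and -0.04 from unstimulated EGCs (-0.39 to 0.31). At 12 h, these were 0.16 (-0.29 to 0.61) and 0.19 (-0.26 to 0.65).

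**Figure D3:**
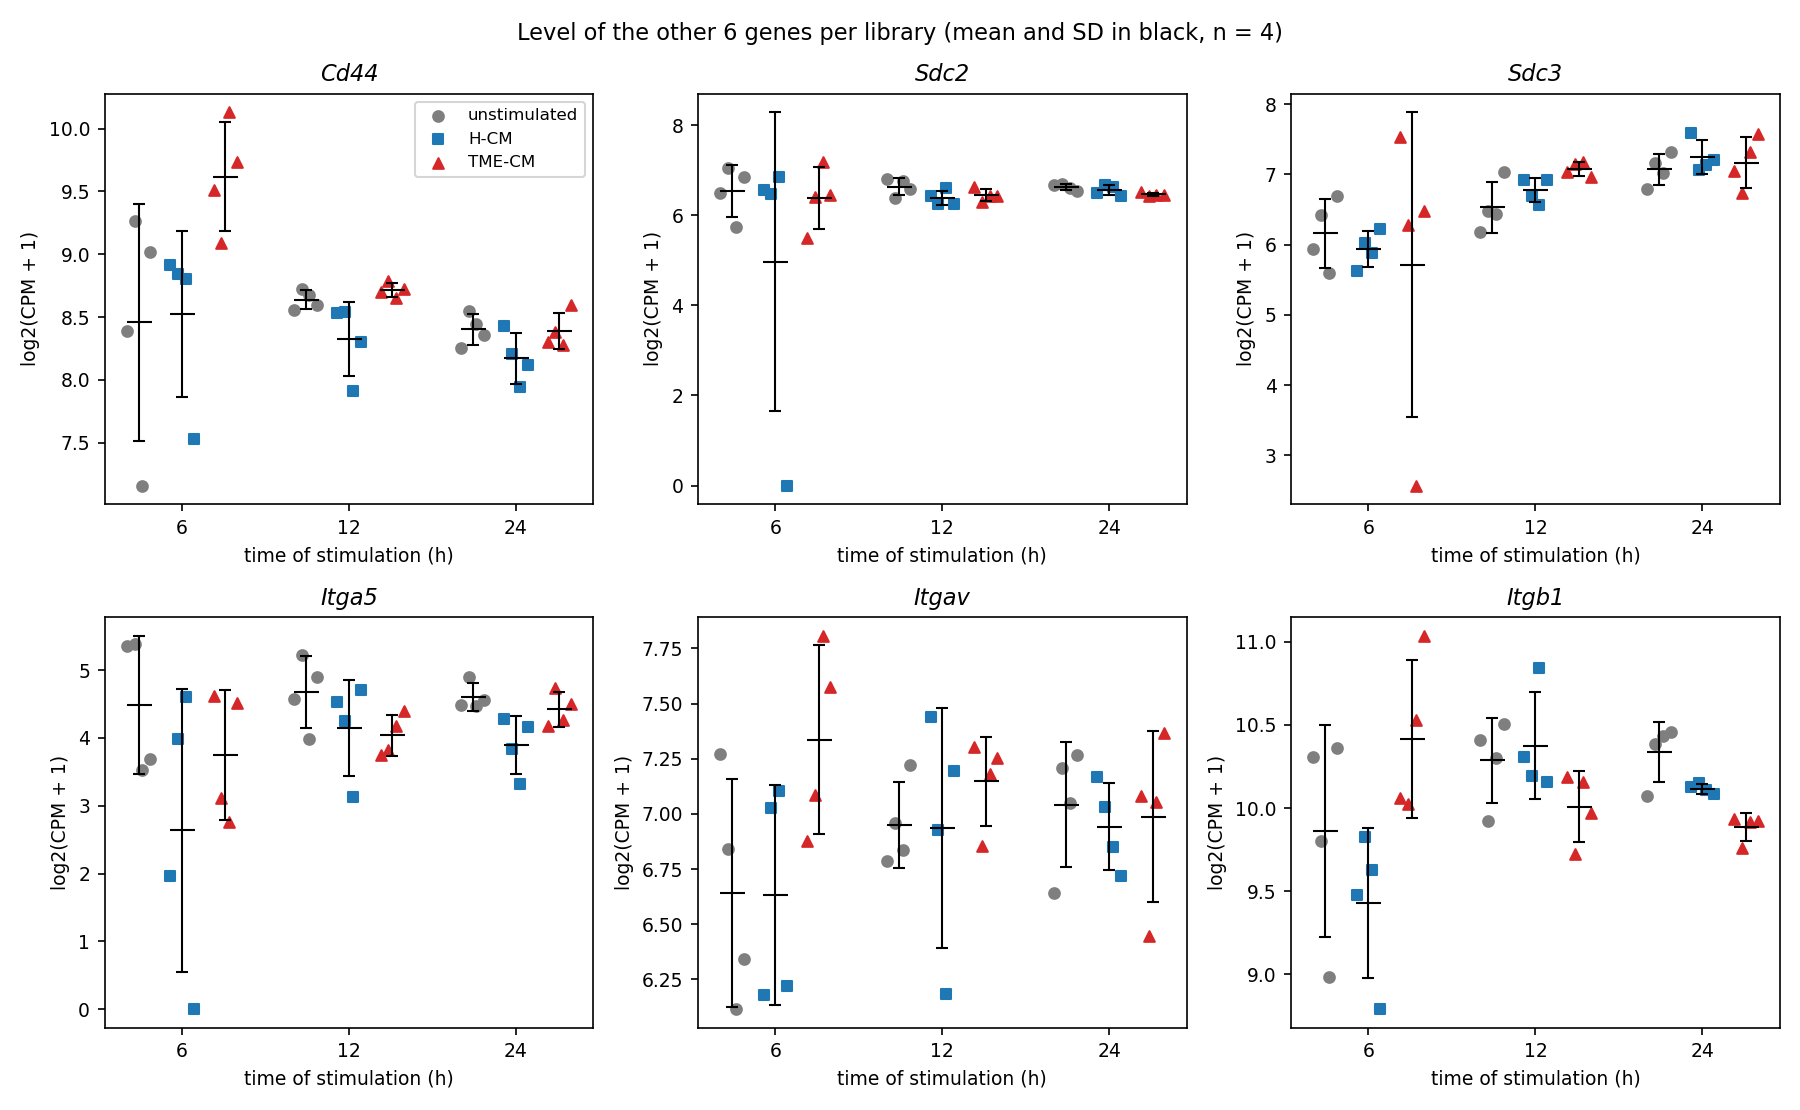
Level of Cd44, Sdc2, Sdc3, Itga5, Itgav and Itgb1 in each library, as log2(CPM + 1), against the time of stimulation in hours, with symbols for unstimulated, H-CM and TME-CM EGCs and the mean and SD of 4 libraries in black. The spread is widest at 6 h. At 24 h the symbols of 5 genes overlap between TME-CM and H-CM, and those of Itgb1 in TME-CM lie lowest, at 865 to 979 CPM.

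The comparison of H-CM with unstimulated EGCs asks what medium of healthy tissue does by itself. No gene of the 10 was called by edgeR at 6 h, 12 h or 24 h, beside 0.00%, 0.403% and 2.03% of all genes. An unadjusted p under 0.05 was found for 2, 3 and 3 of the 10. Over all genes tested, it was found for 58 of 9256, 688 of 12156 and 1349 of 12713. DESeq2 called 0, 2 (Icam1 and Vcam1) and 1 (Icam1) of the 10 at these times, and its share over all genes is not given here. The median log2 fold change of the 10 genes was 0.03, 0.15 and 0.05 at the 3 times, against -0.10, 0.00 and 0.00 over all genes tested. For TME-CM against H-CM the medians were 0.59, 0.34 and 0.26, against 0.13, 0.00 and 0.00 over all genes. Since the 10 genes were chosen with earlier results of these data known, these medians are descriptions and no test of the genes as a set. All 3 comparisons of a time share groups, so their values are not independent.

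Between 12 h and 24 h, 0 of the 10 genes were called in unstimulated EGCs and 0 in H-CM EGCs, by edgeR and by DESeq2. By edgeR, 0.0153% and 0.00763% of all genes were called. An unadjusted p under 0.05 was found for 2 and 2 of the 10, and for 694 and 817 of all 13105 genes. The change of the TME-CM minus H-CM difference from 12 h to 24 h was called for 0 of the 10, and for 0.00% of all genes. DESeq2 also called 0 of the 10. An unadjusted p under 0.05 was found for 0 of the 10 and for 436 of all 13105 genes. The intervals of this change ran from -2.38 to 0.40 for Icam1 (estimate -0.99) and from -0.09 to 1.61 for Itga5 (0.76).

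**Figure D4:**
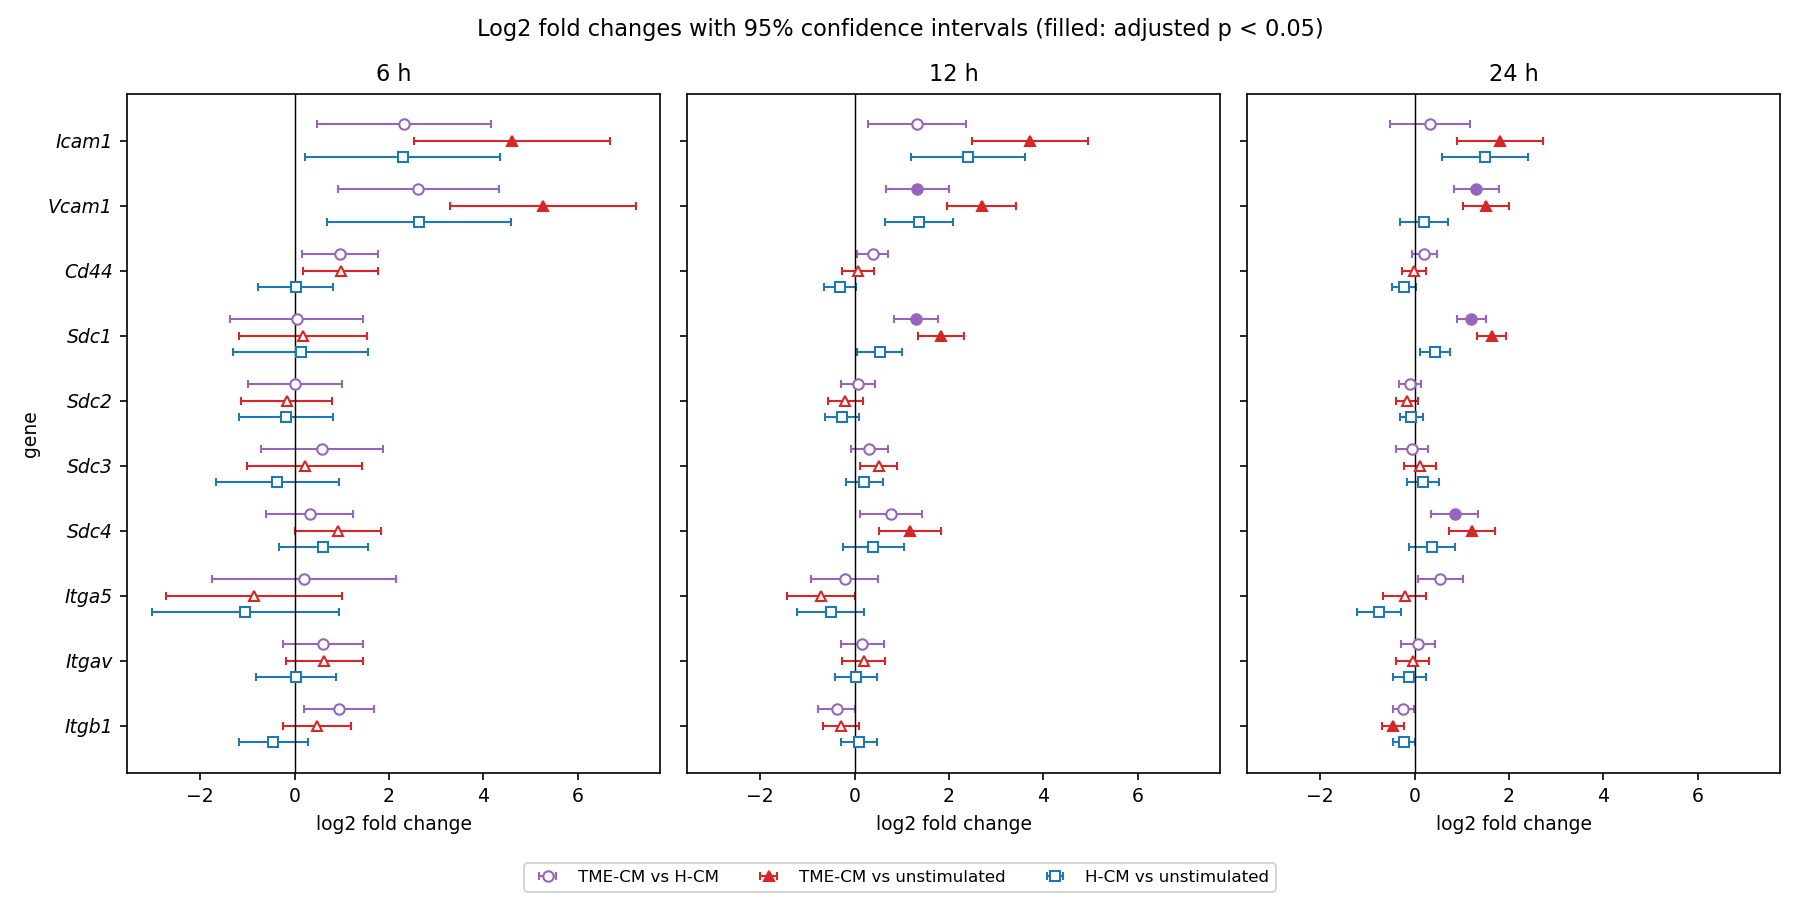
Log2 fold change of each of the 10 genes at each time for TME-CM against H-CM, TME-CM against unstimulated and H-CM against unstimulated EGCs, with 95% confidence intervals from edgeR. Filled symbols have an adjusted p under 0.05. The filled symbols to the right belong to Icam1, Vcam1, Sdc1 and Sdc4, the one to the left, at -0.46, to Itgb1, and the intervals are widest at 6 h.

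Other genes of the same processes were read from 10 lists, named by rule for TME-CM against H-CM at 24 h, where 2.75% of all genes were called higher and 2.65% lower. Of 14 other integrin subunits tested, 0 were higher and 1 lower, Itga8, a partner of beta 1, at 14.4 ± 2.97 CPM against 31.0 ± 6.10 CPM (log2 -1.13 ± 0.22 SE, adjusted p = 0.00243). Of 17 other adhesion proteins of the immunoglobulin type, 0 were higher and 1 lower, Bcam, a laminin receptor (5.16 against 10.7 CPM, log2 -1.10, adjusted p = 0.0472). The medians of these lists were 0.18 and -0.14, against 0.00 for all genes. Of 16 adaptors of focal adhesions, 1 was lower, Tln2, a talin that links integrin tails to actin (log2 -0.82, adjusted p = 0.00258, list median 0.07).

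Among the partners of the syndecan and CD44 tails, 2 of 8 were lower and 0 higher (median -0.11). They were Prkca, the kinase known to bind the tail of syndecan-4, at 19.2 against 31.4 CPM (log2 -0.70, adjusted p = 0.0164), and Ezr, which links CD44 to actin, at 44.0 against 65.5 CPM (-0.58, adjusted p = 0.0389). Of 10 glypicans and other heparan sulfate proteoglycans, 2 were lower and 0 higher (median -0.23), namely Gpc1 (269 against 353 CPM, log2 -0.40, adjusted p = 0.0419) and Col18a1 (156 against 216 CPM, -0.47, adjusted p = 0.0270). In the same comparison, Sdc1 and Sdc4 were called higher and these 2 carriers of heparan sulfate lower, while Sdc2 and Sdc3 were not called. At 12 h, neither Gpc1 (227 against 228 CPM) nor Col18a1 (log2 -0.21) was called.

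Enzymes that build and edit heparan sulfate went both ways, with 3 of 20 higher and 1 lower (median 0.02). Ext1, of the polymerase of the chain, was 202 ± 10.4 CPM in TME-CM and 130.5 ± 7.05 CPM in H-CM (log2 0.63 ± 0.12 SE, adjusted p = 0.00163). Hs6st2, which adds 6-O-sulfate, was at 21.6 against 12.8 CPM (0.75, adjusted p = 0.0177). Of the extracellular sulfatases that remove it, Sulf1 was higher, at 23.6 against 6.87 CPM (1.83, adjusted p = 0.00529), and Sulf2 lower, at 166 against 236 CPM (-0.51, adjusted p = 0.0377).

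Ligands in the matrix included 4 of 20 called higher and 0 lower (median 0.04). Lama1 and Lama4, chains of laminin, had log2 differences of 2.0 (10.5 against 2.31 CPM, adjusted p = 0.00662) and 1.08 (86.2 against 41.1 CPM, adjusted p = 0.00135). Spp1, or osteopontin, a ligand of alpha V integrins and of CD44, was 306 ± 59.1 against 163 ± 31.5 CPM (0.91 ± 0.21 SE, adjusted p = 0.0125). The fourth was Thbs1, outside the rule and named after its value was seen, with 1005 against 587 CPM. In the hyaluronan list, 1 of 10 was higher, Vcan, a proteoglycan that binds hyaluronan (160.4 against 69.0 CPM, log2 1.23, adjusted p = 0.0362), and 0 were lower (median 0.42).

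Of 8 proteases of the list for shedding, 1 was higher and 0 lower (median 0.13). It was Mmp9, a secreted gelatinase, at 777 ± 251 CPM in TME-CM and 105 ± 78.5 CPM in H-CM (log2 2.87 ± 0.48 SE, adjusted p = 0.00554). At 12 h, Mmp9 (2.65, adjusted p = 0.00414), Ext1 (0.63, adjusted p = 0.0389) and Spp1 (0.71, adjusted p = 0.0491) were also higher, and the other 13 of the 16 genes named by rule were not called. Of the selectins and their ligand, 1 of 4 was tested at 24 h and not called. At 12 h, Selp, or P-selectin, named after its value was seen, was higher, at 17.8 against 2.34 CPM (log2 2.97, adjusted p = 0.00981).

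**Figure D5:**
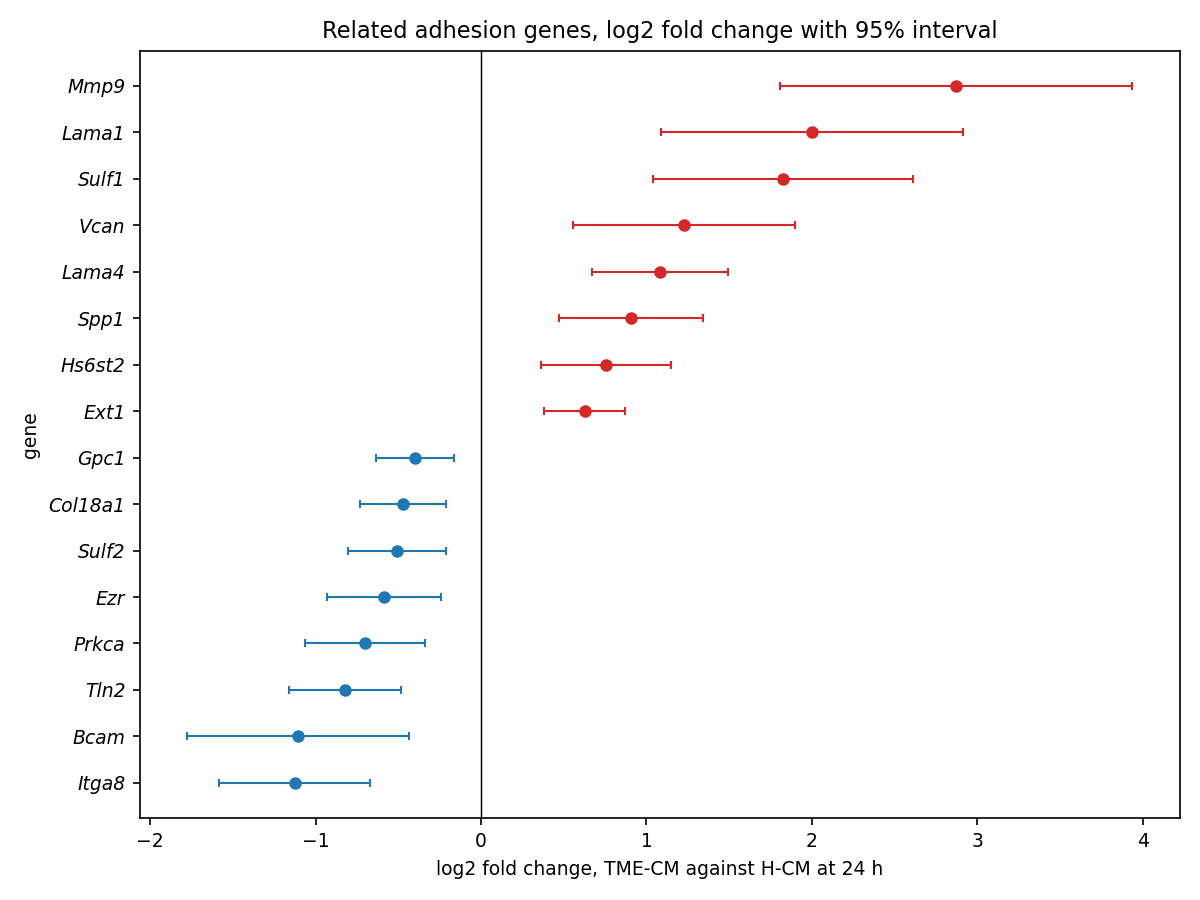
Difference between the TME-CM and H-CM libraries of 24 h as a log2 fold change, with 95% confidence intervals from edgeR, of the 16 genes named by rule from the lists of related genes. All 16 were called, 8 higher (red) and 8 lower (blue), from 2.87 for Mmp9 to -1.13 for Itga8.

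Across the 24 libraries of 12 h and 24 h, the genes whose log2 CPM followed Vcam1 most closely were Cxcl10 (Pearson's r = 0.916), Lgals9 (0.913) and Znrf1 (0.904), out of 10035 genes compared. For Sdc1 they were Tmem176b (0.943), Ifitm2 (0.940) and Fam162a (0.934), and for Sdc4 Hif1a (0.885), Cxcl16 (0.881) and N4bp1 (0.880). Among the 10 genes themselves, r was 0.823 between Vcam1 and Sdc1, 0.745 between Vcam1 and Sdc4, 0.657 between Sdc1 and Sdc4 and -0.609 between Vcam1 and Itgb1. These values are descriptions, since the libraries fall into 6 groups of shared treatment, time and depth.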

How the data were processed

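RNA of 36 libraries of wild-type mouse EGCs was sequenced from transcript 3′ ends (QuantSeq). According to the study's methods, the authors checked reads with FastQC 0.11.7, trimmed them, aligned them with HISAT2 to mm10, discarded reads with several positions and counted reads per gene with HT-seq Count (SAMtools 1.5), and deposited these raw counts for 43472 genes. The annotation, the strand setting and any use of molecular identifiers are not given in the sources used here. Counts of reads without molecular identifiers are not independent molecules, so intervals cover the spread between libraries only.

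Groups came from the sample labels. Counts were tested as deposited with edgeR 4.0.16 in R 4.3.3 (limma 3.58.1; TMM scaling, filterByExpr with a minimum count of 10, robust quasi-likelihood test, prior count 2 for log values). Each time was fitted as 1 model of its 12 libraries, with 1 mean per group, and the 12 h and 24 h libraries together for changes with time. Adjusted p-values are Benjamini-Hochberg values over all genes tested, called under 0.05, and intervals are 95% intervals. No 2 libraries held identical counts. Gene positions are from GENCODE M21 (mm10). The scripts were tested on simulated data.

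The 10 genes and the lists of related genes and of markers were chosen with earlier results of these data known. Related genes are named by rule: from each list, up to 3 higher and up to 3 lower, with the largest changes among those called for TME-CM against H-CM at 24 h and at a mean of 5 CPM or more in the higher group. Alternatives were DESeq2 1.42.0 and its size factors, no filter on low counts, other sets of libraries in 1 model, leaving out Yam1 or each library in turn, and the replicate number as a block.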

Additional observations from a re-analysis of the deposited data

Results flagged for a closer look

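Of 90 groups of 4 libraries, 1 for each of the 10 genes in each of 9 groups, 5 held a library far from the other 3, by Dixon's test of the gap to the nearest library as a share of the group's range. Chance flags about 5% of groups. At 6 h, Cd44 in H-CM replicate 4 was at 184 CPM (446 to 481 CPM in the others), in the library of 13518 counts. Sdc4 in TME-CM replicate 3 of 6 h was at 84.6 CPM (155 to 166 CPM in the others). At 24 h, Sdc4 in H-CM replicate 1 was at 147 CPM (60.4 to 74.4 CPM in the others), which is the value on which the size of its difference from TME-CM depends. Itga5 in unstimulated replicate 2 of 24 h was at 28.8 CPM (21.3 to 22.5 CPM in the others). Itgb1 in TME-CM replicate 2 of 24 h was at 865 CPM (966 to 979 CPM in the others).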

How the results depend on the processing

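Over 130 values of the 10 genes (1 per gene and comparison) and 2908 alternative fits of them, 2845 kept their side of the threshold, 45 lost a call, 18 gained one and 0 called values reversed. Of values called in neither fit, 95 fits in 35 values changed sign. The cause of these changes was not tested.

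With all 36 libraries in 1 model, the number of the 10 genes called was 4 for TME-CM against H-CM at 6 h (0 in the report), 0 at 12 h (2) and 0 at 24 h (3). It was 2 for TME-CM against unstimulated EGCs at 24 h (5) and 0 for 24 h against 12 h in TME-CM (1). Without a filter on low counts, it was 1 for TME-CM against H-CM at 6 h and 4 at 12 h, and 2 for H-CM against unstimulated EGCs at both 12 h and 24 h. DESeq2's Wald test called 2 and 1 in the latter 2 comparisons, where edgeR called 0. For TME-CM against unstimulated EGCs at 6 h, where 2 were called, DESeq2's size factors and a fit of only the 8 libraries compared left 1. Leaving out Yam1 changed none of the 13 numbers. The shares of all genes called in these alternative fits are not given here.

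With 1 library left out, the number called ranged from 0 to 1 for 24 h against 12 h in TME-CM, from 0 to 1 for H-CM against unstimulated EGCs at 12 h, from 1 to 3 and from 2 to 3 for TME-CM against H-CM at 12 h and 24 h, and from 0 to 2 and from 3 to 4 for TME-CM against unstimulated EGCs at 6 h and 12 h. At 12 h, H-CM against unstimulated EGCs gained Icam1 without H-CM replicate 4 (adjusted p = 0.00881 by edgeR) or Vcam1 without unstimulated replicate 2 (0.0390).

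The labels share replicate numbers across groups, but nothing says that a number marks a shared culture or day, and no comparison had every correlation of same-numbered libraries over 0.1. These correlations ran from -0.169 to 0.101 for TME-CM and unstimulated EGCs at 24 h, and were all above 0 for H-CM and unstimulated EGCs at 24 h (0.0541 to 0.134) and for TME-CM and unstimulated EGCs at 12 h (0.0223 to 0.205). With a replicate block, 1 of the 10 genes was called for TME-CM against H-CM at 12 h, without Vcam1 (adjusted p = 0.0636 by edgeR), and 1 for TME-CM against unstimulated EGCs at 6 h, without Icam1 (0.0805), each 2 without the block, and the other numbers did not change.

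Depth limits the 6 h libraries most: 1 count stood for 36.8 CPM in the shallowest, and the common dispersion of the 6 h model was 0.572, against 0.122 for 12 h and 0.0455 for 24 h.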
